A study of Mus musculus with 10 samples.

Results

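The 10 genes described here mark macrophages and the states macrophages take in tumours: Adgre1, Csf1r, Mertk, Arg1, Nos2, Mrc1, Apoe, Trem2, Spp1 and Cd163. They were chosen by name, with earlier results of these data known, and all 10 were found among the 32830 genes of a table of RNA levels from 10 mouse ovarian tumour libraries. Of these libraries, 2 came from tumours given PBS (phosphate-buffered saline, the vehicle), 3 from tumours given an inhibitor of the cell-cycle kinases CDK4 and CDK6 (CDK4/6i), 2 from tumours given an antibody against the T cell checkpoint receptor PD-1, and 3 from tumours given both agents (the combination). All samples carry the genotype label WT and the tissue label ovarian cancer. The sources used here do not give the tumour cell line, the implantation site, the mouse strain and age, or the doses and times, and name the inhibitor only by an abbreviation, Abema in the table and Abmea in the sample titles. The series asks how the inhibitor bears on the response to the antibody. The treatment labels of 2 combination samples, replicates 2 and 3, name the antibody as PD2 and PD3, and these samples were grouped by their titles. The labels do not say whether replicates came from separate mice, and p-values here reflect only how these samples spread, which may be technical.

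Macrophages in a tumour arise from blood monocytes and from cells resident in the tissue, and depend on signals through the receptor encoded by Csf1r. In the mouse, cells exposed to interleukin 4 express Arg1 and Mrc1, whereas cells exposed to interferon gamma and bacterial products express Nos2. Arg1 and Nos2 encode enzymes that compete for the same substrate, arginine, the first making ornithine and urea and the second nitric oxide. A further state, laden with lipid, is marked by Trem2, Apoe and Spp1 and has been described in tumours, fat and the brain. The libraries were made from whole tumour tissue, so fewer macrophages and less RNA of a gene per macrophage cannot be told apart.

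Promoter sequences were at hand for 6 of the 10 genes, Apoe, Cd163, Mertk, Mrc1, Spp1 and Trem2, as 9 windows of 300 bases (250 before and 50 after a RefSeq start site, GRCm38.p6). The letters GAGGAA, the core read by PU.1, a transcription factor that macrophages need, stood on either strand in 5 of the 9 windows, from 4 of the 6 genes (Apoe, Mrc1, Spp1 and Trem2), against 27.7% of 19818 promoters of the same length. The windows of Cd163 and Mertk did not hold them. Apoe and Mertk are shown because their levels ran closely together over the libraries, as described with the Apoe values, with the PU.1 letters in capitals. Their windows are chr7:19699139-19699438 (minus strand) and chr2:128698665-128698964 (plus strand).
Apoe: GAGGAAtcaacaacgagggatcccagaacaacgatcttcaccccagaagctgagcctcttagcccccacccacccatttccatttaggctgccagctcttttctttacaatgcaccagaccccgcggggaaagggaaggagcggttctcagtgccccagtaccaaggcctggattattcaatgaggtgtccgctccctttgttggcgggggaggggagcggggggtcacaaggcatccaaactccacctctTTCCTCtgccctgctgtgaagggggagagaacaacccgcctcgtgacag
Mertk: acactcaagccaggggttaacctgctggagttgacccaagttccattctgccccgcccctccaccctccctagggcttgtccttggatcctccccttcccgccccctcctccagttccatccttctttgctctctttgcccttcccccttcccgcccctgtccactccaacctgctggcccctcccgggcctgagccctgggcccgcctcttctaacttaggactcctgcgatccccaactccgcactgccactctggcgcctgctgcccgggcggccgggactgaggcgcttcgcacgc
A loose form of the NF-kB site was found in 5 of the 9 windows, against 60.6% of all promoters. An interferon response element stood in 1 window, of Spp1, against 3.19% of all promoters, and the AP-1 letters TGANTCA in 1 window, of Trem2, against 6.54%. The C/EBP letters TTGCNNAA stood in 2 windows, against 9.86%, and the hypoxia letters GCGTG in 2, against 41.9%. The GAS letters TTCNNNGAA and the E-box CACGTG stood in 0 windows, against 7.43% and 8.35%. Windows of the same gene, some of which overlap, are not independent. Both strands were searched for each motif, and a match describes letters, not a site in use.

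The recovered library totals ran from 25132208 to 36260856 reads. Every library held macrophage RNA: Lyz2 ranged from 146 to 701 RPKM (reads per gene length, corrected for sequencing depth), C1qa from 77.3 to 234 and Cd68 from 16.7 to 50.2. Tumour markers were also present in every library, with Krt8 from 118 to 179 RPKM and Wt1 from 33.1 to 53.3, while Pax8 was at most 0.137 RPKM in 9 libraries. The libraries also differed in RNA of other tissues. The 12 skeletal muscle genes summed to 41236 to 49799 RPKM in CDK4/6i replicates 1 and 2 and combination replicate 1, and to at most 7513 in the other 7. The 10 exocrine pancreas genes summed to 47528 and 18689 RPKM in the antibody libraries, the 10 liver genes to 3839 in PBS replicate 2 and the 8 adipocyte genes to 1364 in PBS replicate 1. The pancreas genes also summed to 7610 and 1923 RPKM in combination replicates 3 and 2 and to 770 in CDK4/6i replicate 3, against at most 8.89 in the other 5. The muscle-rich libraries hold 2 of the 3 CDK4/6i samples.

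**Figure D1:**
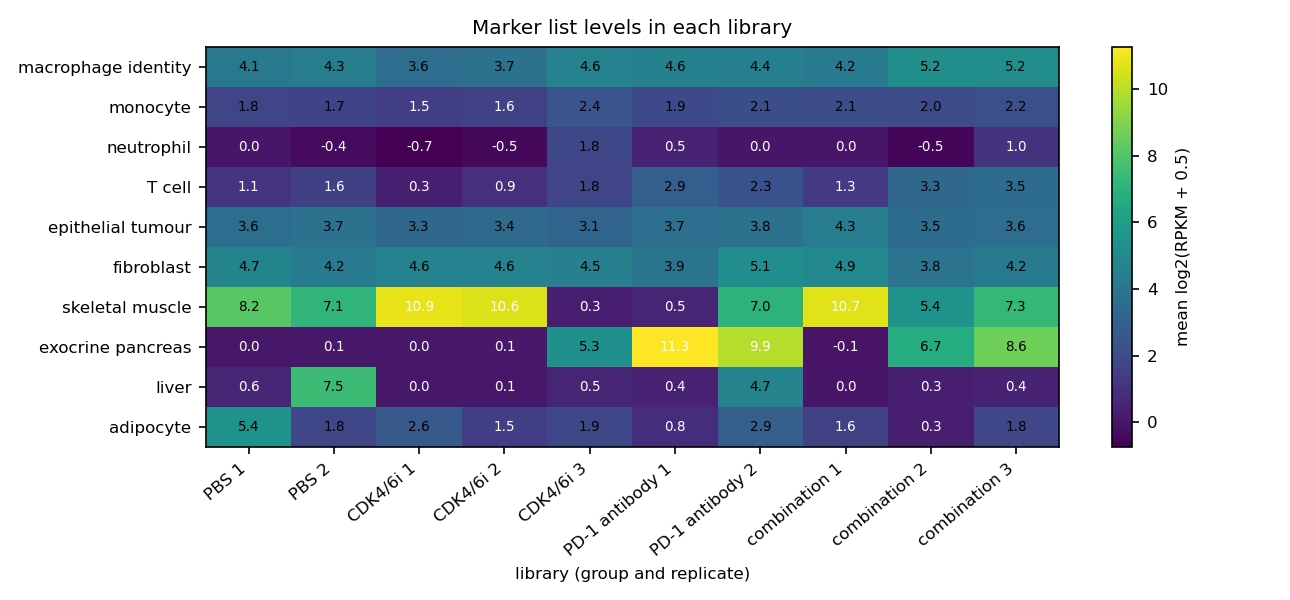
Mean log2(RPKM + 0.5) of each marker list (rows) in each of the 10 libraries (columns), by colour and number. The macrophage row runs from 3.57 to 5.21, while the skeletal muscle row reaches 10.9 in CDK4/6i replicate 1 and falls to 0.29 in CDK4/6i replicate 3.

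The members differed widely in level. On the RPKM scale, which is per gene length, medians over the 10 libraries ran in the order Apoe 2172, Spp1 35.4, Arg1 26.9, Csf1r 18.7, Mertk 8.25, Adgre1 7.55, Mrc1 6.11, Cd163 2.53, Trem2 2.34 and Nos2 0.856 RPKM. The lowest Apoe level, 798 RPKM, lay above the highest level of any other member, 102.5 RPKM. Below Apoe, neighbours in this order overlapped: Spp1, Arg1 and Csf1r shared part of their range, as did Mertk, Adgre1 and Mrc1. Trem2 is placed too low by its length in the table, 4946 bases against 1088 for its longest coding transcript in GENCODE M21 (ratio 4.55). The same ratio was 1.52 for Apoe and at most 1.23 for the other 8 genes, and comparisons of 1 gene between libraries do not depend on it. The genes also differed in how much they varied. The highest library exceeded the lowest 245-fold for Nos2, 56.8-fold for Arg1 and 14.2-fold for Cd163, but 2.37-fold for Spp1 and 2.65-fold for Mertk. Reads behind a value ran from 37 (Nos2, CDK4/6i replicate 2) to 234049 (Apoe).

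**Figure D2:**
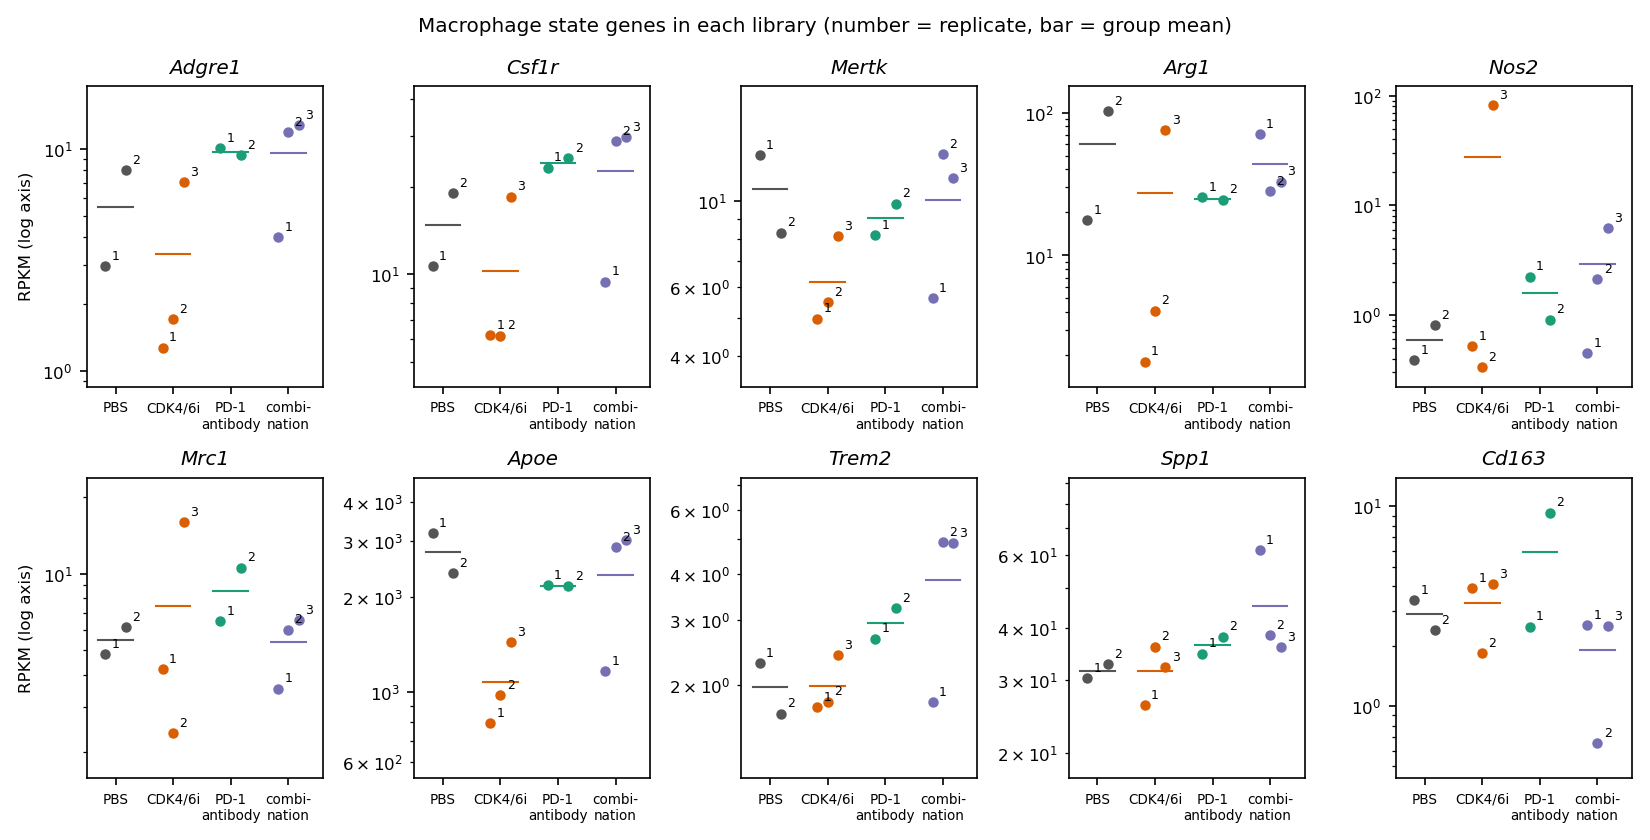
RPKM (log axis) of each member in each library, with the replicate number beside each point and a bar at the group mean. CDK4/6i replicates 1 and 2 are the lowest libraries for Adgre1, Csf1r, Mertk, Arg1 and Apoe, and CDK4/6i replicate 3 holds the highest Nos2 and Mrc1.

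Adgre1 (17:57358686-57483529, plus strand) encodes F4/80, the surface receptor by which mouse macrophages are commonly sorted. Its levels were 2.98 and 8.02 RPKM in the PBS libraries and 1.28, 1.71 and 7.08 RPKM in the CDK4/6i libraries. They were 10.05 and 9.39 RPKM with the antibody and 3.9997, 11.9 and 12.8 RPKM with the combination. Both antibody libraries lay above both PBS libraries, and the combination was split, with replicate 1 at the level of PBS and the others highest of all. The log2 fold change of the combination against CDK4/6i was 1.54 (SE 0.64), with an unadjusted p of 0.0398 and an adjusted p of 0.618 in limma. The CDK4/6i libraries gave a log2 fold change of -0.81 (SE 0.71) against PBS in limma (adjusted p = 0.844). The 3 muscle-rich libraries were 3 of the 4 lowest for Adgre1. Without them the combination against CDK4/6i came to 0.76 (limma, adjusted p = 0.622) and CDK4/6i against PBS to 0.48 (adjusted p = 0.676), the latter resting on 1 CDK4/6i library.

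Csf1r (18:61105572-61132149, plus strand) encodes the receptor for the growth factors Csf1 and Il34, on which most macrophages depend. PBS libraries held 10.7 and 19.0 RPKM, CDK4/6i libraries 6.19, 6.17 and 18.5, antibody libraries 23.3 and 25.03, and combination libraries 9.44, 28.7 and 29.6 RPKM. The order of libraries was nearly that of Adgre1. Over the 10 libraries the log2 levels of both genes had Pearson's r = 0.98 (permutation p = 3e-05, adjusted over 45 member pairs 0.00113) and Spearman's rho = 0.96 (permutation p = 9e-05, adjusted 0.00405). Without the 2 libraries farthest from the Adgre1 median r was 0.97, and in the 7 libraries that were not muscle-rich it was 0.99 (exact permutation p = 0.000794, adjusted 0.0357). Averaged over both levels of the inhibitor, the antibody gave a log2 fold change of 0.93 for Csf1r (SE 0.43, limma, unadjusted p = 0.0588, adjusted p = 0.498) and of 1.23 for Adgre1 (SE 0.50, limma, unadjusted p = 0.0392, adjusted p = 0.479). Both genes were high in libraries with pancreas RNA. With the mean log2 level of the pancreas list, r over the 10 libraries was 0.77 for Adgre1, 0.81 for Csf1r and 0.74 for Trem2, as a description. For the same genes r was higher with immune cell lists. It was 0.92, 0.92 and 0.89 with the T cell list and 0.93, 0.95 and 0.81 with the B cell list. With the dendritic cell list it was 0.92, 0.92 and 0.77. The part of pancreas tissue in these levels was not tested. The ligands varied less than their receptor. Csf1 ranged from 6.84 to 11.5 RPKM and Il34 from 2.12 to 3.77 RPKM over all libraries, and neither passed the test in any comparison.

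Mertk (2:128698956-128802894, plus strand) encodes a receptor tyrosine kinase of the TAM family through which macrophages bind and take up dying cells. Its levels were 13.2 and 8.30 RPKM with PBS, 4.98, 5.48 and 8.13 with CDK4/6i, 8.20 and 9.86 with the antibody, and 5.62, 13.2 and 11.5 with the combination. All 3 CDK4/6i libraries lay below both PBS libraries, though replicate 3 only just. The limma log2 fold change was -0.74 (SE 0.38, unadjusted p = 0.0825, adjusted p = 0.844). Without the muscle-rich libraries it was -0.35, resting on CDK4/6i replicate 3 alone. Its bridging ligands behaved differently from each other in level. Gas6 was abundant, from 189 to 391 RPKM, with the lowest values in the antibody libraries, and Pros1 ranged from 2.51 to 4.43 RPKM. The sister receptors Axl (33.0 to 83.4 RPKM) and Tyro3 (13.3 to 21.6 RPKM) were more abundant per length than Mertk in every library. Of the 8 tested genes of this list, 1 was higher in CDK4/6i than in PBS, where 23.4% of all genes were higher, and none passed the test.

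Arg1 (10:24915208-24927470, minus strand), which encodes arginase 1, had the widest spread within groups after Nos2. The PBS libraries held 17.7 and 102.5 RPKM. The CDK4/6i libraries held 1.80, 4.12 and 75.6 RPKM. The antibody libraries held 25.5 and 24.6 RPKM, and the combination libraries 70.8, 28.4 and 32.8 RPKM. All 3 combination libraries lay above both antibody libraries, and every other pair of groups overlapped. The log2 fold change of CDK4/6i against PBS was -2.22 with a 95% interval of -5.40 to 0.97 (limma, adjusted p = 0.844), an interval that spans 0. The 2 low CDK4/6i values were those of the muscle-rich libraries, and without the 3 muscle-rich libraries the fold change turned to 0.81 (limma, adjusted p = 0.722), resting on CDK4/6i replicate 3 alone, and that of the combination against CDK4/6i turned from 2.14 to -1.29. Hepatocytes also express Arg1, and the library with the highest Arg1, PBS replicate 2, was the one rich in liver RNA. There the 10 liver genes were all above 0, with Alb at 1395 RPKM and Cps1, the urea cycle enzyme of hepatocytes, at 21.6 RPKM. The liver list summed to 99.8 to 3839 RPKM in PBS, 38.4 to 159 in CDK4/6i, 55.1 to 501 in the antibody and 35.0 to 70.7 in the combination, and its part in the Arg1 level of PBS replicate 2 was not tested. In the other libraries with high Arg1, CDK4/6i replicate 3 and combination replicate 1, Cps1 was at 0 and Alb at 0.297 and 0.115 RPKM. Leaving out PBS replicate 2 turned the fold change of the antibody against PBS from -0.76 to 0.48 and that of the combination against PBS from -0.08 to 1.17.

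Nos2 (11:78920787-78960254, plus strand), which encodes the inducible nitric oxide synthase, was the lowest member in 7 of the 10 libraries and the one with the widest range. It stood at 0.388 and 0.804 RPKM with PBS, 2.24 and 0.907 with the antibody, and 0.452, 2.12 and 6.23 with the combination. With CDK4/6i it stood at 0.520, 0.333 and 81.5 RPKM. A single library, CDK4/6i replicate 3, thus set the group mean, and the limma log2 fold change against PBS, 1.94 (SE 1.84, adjusted p = 0.851), became -0.22 when it was left out. When instead the muscle-rich libraries were left out, that library stood alone for CDK4/6i and the value was 6.25 (adjusted p = 0.0596), with the lone sample assumed to vary like the other groups. The same library held the highest levels of several inflammatory genes, which were singled out after their values were seen. Il1b was at 56.9 RPKM there and at most 2.66 elsewhere, Il6 at 20.9 against at most 1.56, Ptgs2 at 34.2 against at most 1.21 and the granulocyte growth factor Csf3 at 44.1 against at most 1.53. Slc7a2, a transporter that brings arginine into macrophages, was at 55.6 RPKM against at most 17.6, and Gch1, whose product makes the Nos2 cofactor, at 6.42 against at most 4.26.

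The summed level of the neutrophil genes was also highest in that library. The 10 genes summed to 119 RPKM there, with S100a9 at 81.1, Ly6g at 0 and Camp, at 0.275, below the 1.24 of combination replicate 3, and to 1.84 to 119 RPKM across CDK4/6i, 5.18 to 7.48 across PBS, 15.1 to 22.2 across the antibody and 3.40 to 54.2 across the combination. Combination replicate 3, with the second highest neutrophil sum, also had the second highest Nos2. The part of neutrophils in the Nos2 level was not tested. Of the other 16 genes of arginine and nitric oxide metabolism, 6 were higher in CDK4/6i than in PBS and 3 were higher with the antibody than in PBS, where 23.4% and 31.1% of all genes were higher, and none passed the test in any comparison. Among them Qdpr, which recycles the cofactor, had the lowest p in both, with limma log2 fold changes of -0.54 and -0.55 (unadjusted p = 0.0137 and 0.0206, adjusted p = 0.844 and 0.545).

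The ratio of Arg1 to Nos2 on the RPKM scale spanned from 0.928 to 157. It was 45.7 and 127 in the PBS libraries, 3.47, 12.4 and 0.928 with CDK4/6i, 11.4 and 27.1 with the antibody, and 157, 13.4 and 5.27 with the combination. On this scale both PBS libraries stood above all CDK4/6i and antibody libraries, and combination replicate 1 stood above all others. Nos2 was low there, at 0.388 and 0.804 RPKM in PBS and 0.452 in combination replicate 1. As a difference of log2(RPKM + 0.5), PBS replicate 2 (6.30) stood above combination replicate 1 (6.23). PBS replicate 1 (4.36) stood just above antibody replicate 2 (4.16). PBS replicate 2 was also the library rich in liver RNA. The low ratios of CDK4/6i had different components: replicates 1 and 2 had the lowest Arg1 levels of all libraries, and replicate 3 had a high level of both genes. No test was run on the ratio.

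**Figure D3:**
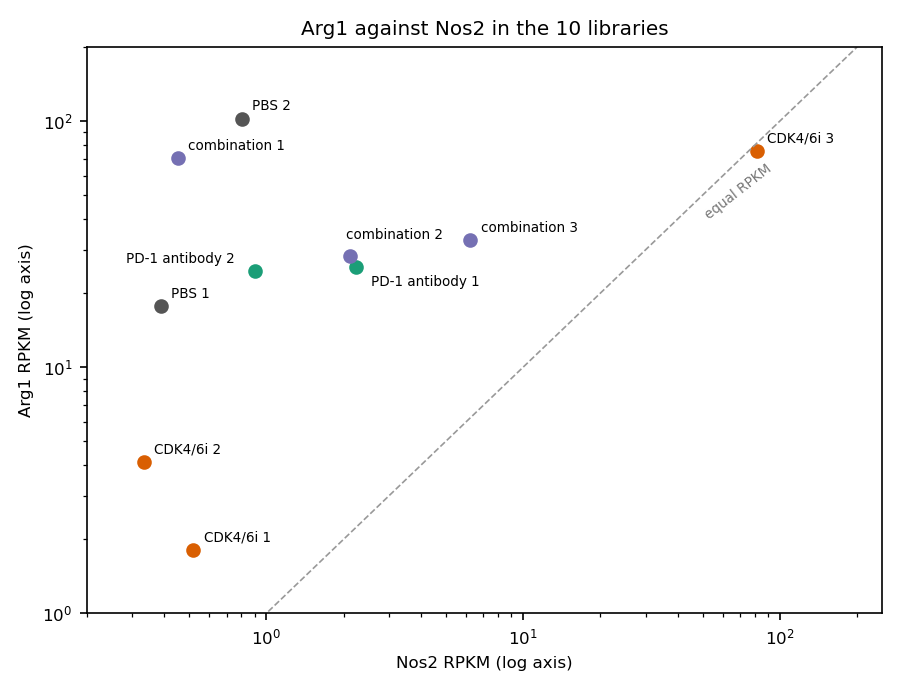
Arg1 against Nos2 in RPKM (both axes log), 1 point per library coloured by group, with a dashed line where both are equal. CDK4/6i replicate 3 sits just below the line at the far right, at 81.5 RPKM of Nos2, while the other 9 libraries lie above the line at 0.333 to 6.23 RPKM.

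Mrc1 (2:14229392-14332057, plus strand) encodes the mannose receptor CD206 and Cd163 (6:124304656-124330527, plus strand) the scavenger receptor for haptoglobin bound to haemoglobin. Both are often read as signs of an interleukin 4 or interleukin 10 state. Mrc1 levels were 4.85 and 6.19 RPKM with PBS, 4.23, 2.36 and 15.9 with CDK4/6i, 6.54 and 10.6 with the antibody, and 3.54, 6.04 and 6.59 with the combination. Cd163 levels were 3.40 and 2.41 RPKM with PBS, 3.90, 1.85 and 4.08 with CDK4/6i, 2.50 and 9.30 with the antibody, and 2.55, 0.654 and 2.52 with the combination. Both were high in antibody replicate 2 and CDK4/6i replicate 3 and low in CDK4/6i replicate 2. The highest Mrc1 level was in CDK4/6i replicate 3, the library with the highest Nos2. Mrc1 and Nos2 had Pearson's r = 0.77 over 10 libraries (permutation p = 0.00833, adjusted over 45 pairs 0.0937) and Spearman's rho = 0.87 (permutation p = 0.00214, adjusted 0.0321). Without the 2 libraries farthest from the Nos2 median r was 0.59, so that the linear relation rests in part on those libraries, and in the 7 libraries that were not muscle-rich it was 0.76 (exact permutation p = 0.0581, adjusted 0.374). The log2 fold change of Cd163 for the combination against the antibody was -1.30 (SE 0.60, limma, unadjusted p = 0.06, adjusted p = 0.891). Combination replicates 1 and 3, at 2.55 and 2.52 RPKM, lay just above antibody replicate 1 at 2.50. Without the muscle-rich libraries the value was -1.54 (limma, adjusted p = 0.457). Hp, the haptoglobin that Cd163 takes up, ranged from 9.08 RPKM (combination replicate 2) to 289.9 (CDK4/6i replicate 3), and Hmox1, which breaks down the haem, was at 87.6 RPKM in CDK4/6i replicate 3 against at most 20.1 elsewhere.

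Among the 18 tested genes of the alternative activation list, 10 were lower and 8 higher in CDK4/6i than in PBS, with a median log2 fold change of -0.02 against -0.20 for all genes. Without the muscle-rich libraries 13 were higher, with a median of 0.34 against -0.04 for all genes, resting on CDK4/6i replicate 3 alone. Irf4, a transcription factor of this state and of lymphocytes, had the lowest p, with a limma log2 fold change of -1.64 (SE 0.57, unadjusted p = 0.019, adjusted p = 0.844). Its levels were 5.78 and 3.23 RPKM in PBS and 0.479, 1.11 and 1.87 RPKM in CDK4/6i. Without the muscle-rich libraries the limma log2 fold change was -1.03, again resting on CDK4/6i replicate 3 alone. Of the classic mouse markers, Retnla was lowest, at 0.465 RPKM, in CDK4/6i replicate 3, where Mrc1 was highest, and Chil3 was highest, at 9.31 RPKM, in combination replicate 2 and next highest, at 2.77 RPKM, in CDK4/6i replicate 3. None of the 18 passed the test.

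Apoe (7:19696109-19699188, minus strand) encodes apolipoprotein E, a lipid carrier that macrophages secrete, and had the lowest unadjusted p of any member. It measured 3187 and 2376 RPKM in PBS, 798, 974.8 and 1441 RPKM in CDK4/6i, 2182 and 2163 RPKM with the antibody, and 1164, 2870.4 and 3019 RPKM with the combination. Every CDK4/6i library lay below every PBS library and below both antibody libraries, and combination replicate 1 lay within the CDK4/6i range. The limma log2 fold change of CDK4/6i against PBS was -1.40 (SE 0.43, 95% interval -2.38 to -0.43), with an unadjusted p of 0.0102 and an adjusted p of 0.844, so it did not pass the test over all genes. The value ran from -1.64 to -1.19 when any 1 library was left out. It was -0.93 without the muscle-rich libraries, resting on CDK4/6i replicate 3 alone. The combination against CDK4/6i gave 1.06 (SE 0.38, limma, unadjusted p = 0.0232, adjusted p = 0.618). The interaction, which asks whether the inhibitor's effect differs with and without the antibody, was 1.40 (SE 0.60, limma, unadjusted p = 0.0477, adjusted p = 0.777).

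Apoe is made by other cells as well. The PBS libraries, with the highest group mean of Apoe, 2781 ± 574 RPKM (SD, n = 2), included the library with the most adipocyte RNA and the one with the most liver RNA, tissues that express Apoe. Adipoq was at 111 RPKM in PBS replicate 1 and Alb at 1395 RPKM in PBS replicate 2. The adipocyte list summed to 87.3 to 1364 RPKM in PBS, 46.2 to 126 in CDK4/6i, 19.5 to 119 in the antibody and 9.20 to 48.9 in the combination. Combination replicates 2 and 3 reached 2870.4 and 3019 RPKM of Apoe with Adipoq at 0.905 and 7.51 RPKM and Alb at 0.533 and 0.589 RPKM. The part of either tissue in the Apoe levels of PBS was not tested. Mertk followed Apoe closely: Pearson's r was 0.95 over 10 libraries (permutation p = 5e-05, adjusted over 45 pairs 0.00113) and Spearman's rho 0.93 (permutation p = 0.00038, adjusted 0.00855). It was 0.93 without the 2 libraries farthest from the Mertk median, and 0.80 in the 7 libraries that were not muscle-rich (exact permutation p = 0.026, adjusted 0.234).

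Trem2 (17:48346401-48354147, plus strand) encodes a receptor for lipids and lipoproteins, Apoe among them, that signals through the adaptor Tyrobp. Its levels were 2.28 and 1.67 RPKM with PBS, 1.74, 1.80 and 2.40 with CDK4/6i, 2.67 and 3.22 with the antibody, and 1.79, 4.89 and 4.86 with the combination. Both antibody libraries and combination replicates 2 and 3 exceeded all PBS and CDK4/6i libraries, and combination replicate 1, which is muscle-rich, did not. The averaged antibody effect was 0.60 (SE 0.26, limma, unadjusted p = 0.0502, adjusted p = 0.491). The combination against PBS gave 0.72 (SE 0.37, limma, adjusted p = 1) and, without the muscle-rich libraries, 1.13 (adjusted p = 0.103). Tyrobp was low and high in nearly the same libraries, from 8.43 RPKM in CDK4/6i replicate 1 to 37.0 and 34.6 RPKM in combination replicates 2 and 3. Hcst, the other adaptor that pairs with Trem2, was at 0.154 to 0.577 RPKM in PBS and CDK4/6i and at 0.749 to 1.48 RPKM in the antibody and combination libraries. How many of all genes lay apart in this way was not counted. The limma log2 fold change of Hcst for the combination against CDK4/6i was 1.11 (unadjusted p = 0.0034, adjusted p = 0.618). It was 0.85 without the muscle-rich libraries, resting on CDK4/6i replicate 3 alone. In the T cell list, 10 of 10 genes were higher than in PBS both with the antibody and with the combination. Of all genes, 31.1% and 42.0% were higher in these comparisons. The part of T cells in the Hcst level was not tested.

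Spp1 (5:104435118-104441050, plus strand) encodes osteopontin, a secreted ligand of integrins and of Cd44, and was the least variable member. It measured 30.3 and 32.7 RPKM in PBS, 26.0, 36.1 and 32.3 in CDK4/6i, 34.7 and 38.2 with the antibody, and 61.7, 38.5 and 36.0 with the combination. All 5 antibody and combination libraries exceeded both PBS libraries, and the CDK4/6i libraries spanned the PBS range. The combination against PBS gave a log2 fold change of 0.48 (SE 0.25, limma, unadjusted p = 0.0889, adjusted p = 1) and was 0.24 (adjusted p = 0.661) without combination replicate 1 and the other muscle-rich libraries. Epithelial cells also make osteopontin, and combination replicate 1 stood apart in epithelial genes. There Epcam was at 27.8 RPKM against at most 6.21 elsewhere and Pax8 at 1.10 against at most 0.137, while the 10 epithelial genes, of which none was at 0, summed to 534 RPKM there and to 454 to 534 in the combination, 536 to 548 in PBS, 359 to 475 in CDK4/6i and 418 to 477 in the antibody. Their part in the Spp1 level was not tested. Cd44, the receptor, was highest in CDK4/6i replicate 3 at 28.6 RPKM, where Spp1 was unremarkable at 32.3 RPKM.

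Levels were also set against macrophage RNA as a whole, by subtracting the mean log2(RPKM + 0.5) of 20 other macrophage genes from that of each member in the same library. That mean was 4.10 and 4.31 in PBS, 3.57, 3.74 and 4.599 in CDK4/6i, 4.57 and 4.45 with the antibody, and 4.20, 5.21 and 5.19 with the combination. On this relative scale Trem2 became the steadiest member, with an SD of 0.26 over the 10 libraries against 0.50 before. Csf1r came to 0.41 from 0.84 and Adgre1 to 0.59 from 1.05, a smaller spread than that of their levels. Nos2 (1.82) and Arg1 (1.49) kept a wide spread. Spp1 and Cd163 varied more on the relative scale, 0.56 against 0.32 and 1.09 against 0.78.

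Relative to macrophage RNA, Apoe was highest in the PBS libraries, at 6.91 and 7.53, and lay between 5.89 and 6.63 in the 8 treated libraries. The CDK4/6i mean was 1.17 log2 units below PBS, the antibody mean 0.64 and the combination mean 1.01 below PBS, although the Apoe levels of combination replicates 2 and 3 were near those of PBS. Cd163 was lowest relative to macrophage RNA in the combination, with values from -5.00 to -2.59 that lay below all CDK4/6i values, from -2.51 to -1.43. Mrc1 in the combination, from -2.50 to -2.18, lay below PBS, from -1.69 to -1.57, and below the antibody libraries, from -1.75 to -0.98. Adgre1 and Csf1r were relatively lower in the combination than with the antibody alone, by 0.53 and 0.62. These relative values were not tested, and how many of all genes lay apart in the same way on this scale was not counted. The subtraction lowers any gene that does not rise with the 20 macrophage genes, whose mean was highest in combination replicates 2 and 3. On RPKM levels, Mrc1 in the combination overlapped with every other group, and Cd163 in the combination overlapped with CDK4/6i. The part of adipocyte and liver RNA in the Apoe values of PBS was not tested here either.

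**Figure D4:**
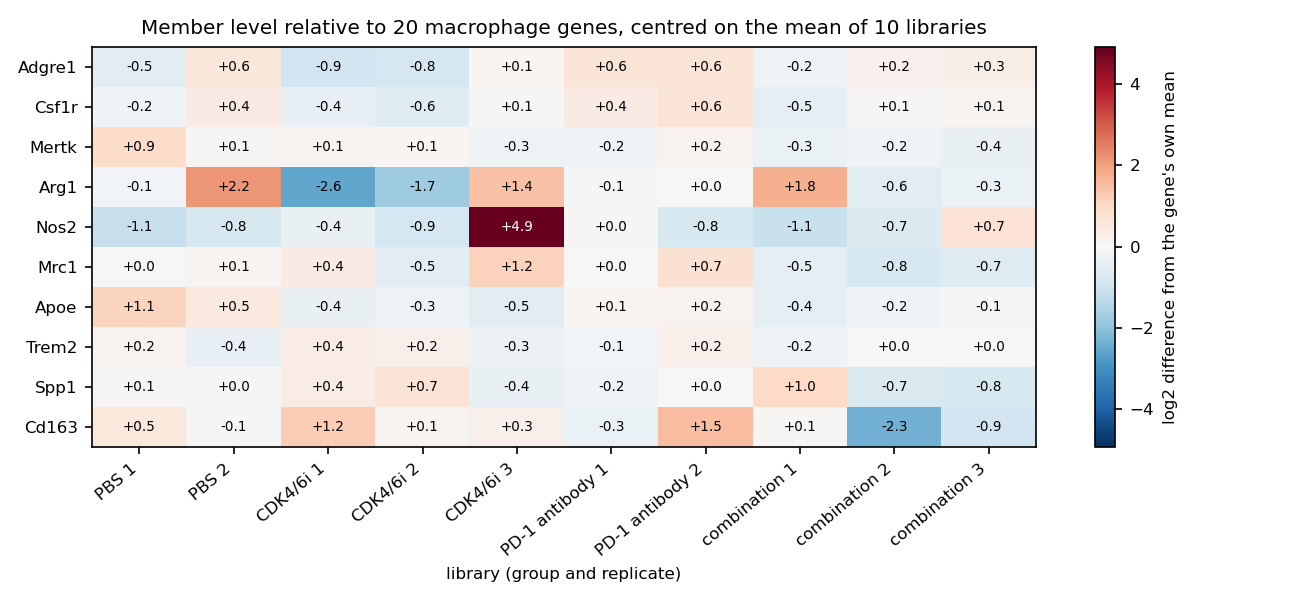
Log2 level of each member (rows) relative to 20 macrophage genes in each library (columns), centred on the gene's own mean over 10 libraries. Nos2 stands 4.9 above its mean in CDK4/6i replicate 3, Cd163 2.3 below in combination replicate 2, and Trem2 stays within 0.41 of its mean.

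No member passed the adjusted threshold of 0.05 in any of the 8 comparisons by limma, and neither did any of the 19368 tested genes (0% in each comparison). Limma with voom on the recovered reads also called 0 genes in each. For CDK4/6i against PBS, 4 members were higher and 6 lower, with a median log2 fold change of -0.33 against -0.20 for all genes. Of all genes, 23.4% were higher. Without the muscle-rich libraries 8 members were higher and 2 lower, with a median of 0.40 against -0.04, resting on CDK4/6i replicate 3 alone. With all libraries, Apoe was the 1 member with an unadjusted p under 0.05 in limma, against 5.35% of all genes. Mertk and Apoe did not overlap between these groups, both lower in CDK4/6i, against 17.3% of all genes that lay lower without overlap and 1.71% that lay higher. A count of 2 in 10 is close to that background.

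For the antibody against PBS, 7 members were higher and 3 lower, with a median of 0.52 against -0.17 for all genes. Adgre1, Csf1r, Nos2, Mrc1, Trem2 and Spp1 were higher in both antibody libraries than in both PBS libraries, 6 of 10 members against 8.78% of all genes, and Apoe was lower in both, against 34.8% of all genes. No member had an unadjusted p under 0.05 here, against 8.65% of all genes. The lowest was that of Trem2, with a log2 fold change of 0.48 (SE 0.41, limma, unadjusted p = 0.267, adjusted p = 0.769). With 2 libraries a group, separation without overlap is a weak criterion, and the 6 genes are not independent, since Adgre1, Csf1r and Trem2 varied with macrophage RNA.

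For the combination against PBS, 5 members were higher and 5 lower, with a median of 0.21 against -0.05 for all genes and no unadjusted p under 0.05, against 3.54% of all genes. Spp1 alone did not overlap, higher in the combination, against 4.45% of all genes that were higher and 11.5% that were lower without overlap. Against the antibody alone, the combination had 5 members higher and 5 lower, with a median of 0.04 against 0.12 and no unadjusted p under 0.05, against 5.55% of all genes. Arg1 alone did not overlap, higher in the combination, against 21.5% of all genes that were higher and 5.1% that were lower. These comparisons share their control libraries with others and are not independent of them.

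For the combination against CDK4/6i, 7 members were higher and 3 lower (Nos2, Mrc1 and Cd163), with a median of 0.66 against 0.15 for all genes. Adgre1 and Apoe had an unadjusted p under 0.05, 2 of 10 members against 8.03% of all genes. No member was free of overlap, against 7.84% of all genes that were higher and 3.01% that were lower. Averaged over the inhibitor, the antibody had 9 members higher and Cd163 lower, with a median of 0.35 against -0.01, and Adgre1 was the 1 member with an unadjusted p under 0.05, against 10.2% of all genes. Averaged over the antibody, the inhibitor had 3 members higher and 7 lower, with a median of -0.39 against -0.05 and 1 unadjusted p under 0.05, that of Apoe at -0.71 (SE 0.30, limma, unadjusted p = 0.0458, adjusted p = 0.966), against 4.91% of all genes. The interaction had 7 members above and 3 below 0 with a median of 0.33, beside 0.33 for all genes, and 1 unadjusted p under 0.05, that of Apoe, against 5.62%. Of all genes, 68.6%, 48.1%, 41.5% and 83.3% were higher in these comparisons, in the order given. Without the muscle-rich libraries, the combination against CDK4/6i had 6 members higher, with a median of 0.39 against 0.09. The averaged antibody effect had 6 higher (0.19 against -0.05), the averaged inhibitor effect 8 (0.36 against 0.08) and the interaction 3 (-0.12 against 0.25). All of these rest on CDK4/6i replicate 3 alone for that group.

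**Figure D5:**
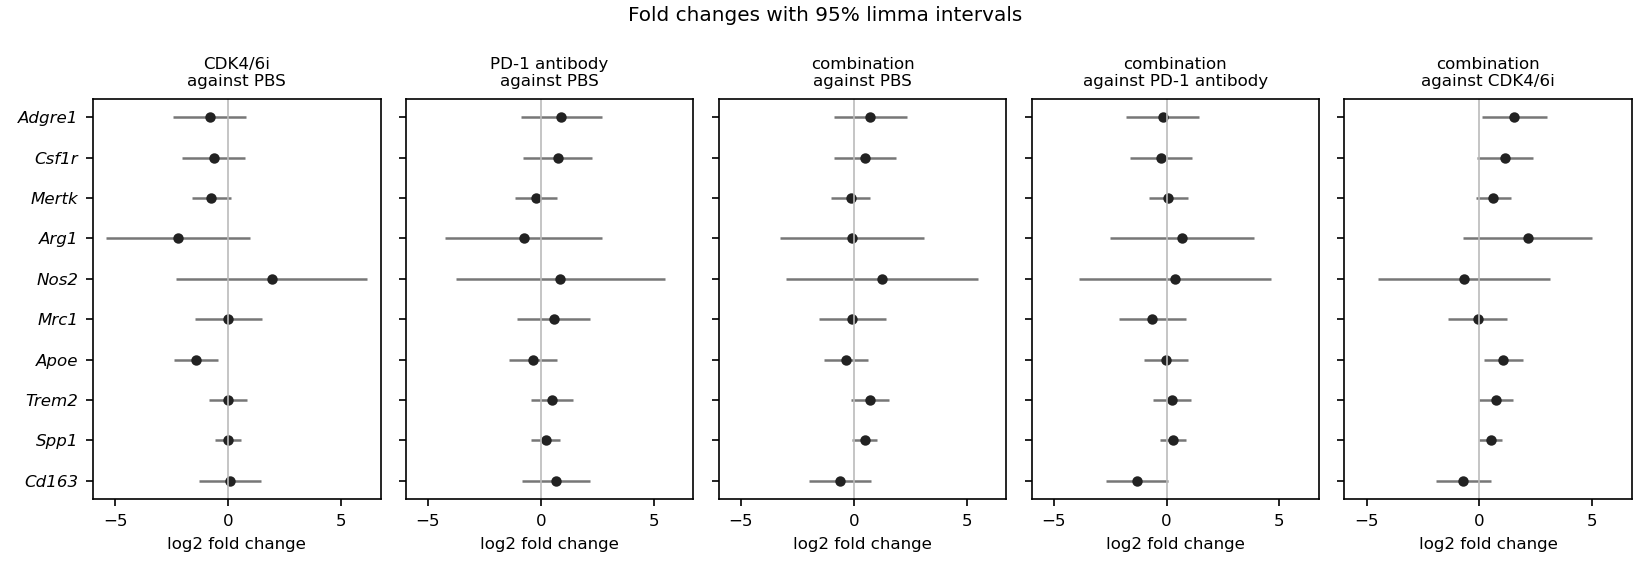
Log2 fold change of each member (points, log2(RPKM + 0.5) scale) with its 95% limma interval (lines) in the 5 pairwise comparisons. Nos2 and Arg1 have the widest intervals, Spp1 among the narrowest, and Apoe in CDK4/6i against PBS lies wholly below 0, from -2.38 to -0.43, though it did not pass the adjusted test.

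The wider lists give the setting of the members. Of the 20 macrophage identity genes, 18 were higher in the combination than in CDK4/6i, with a median log2 fold change of 1.05. Of all genes, 68.6% were higher there, with a median of 0.15. In limma 13 of the 20 had an unadjusted p under 0.05, all of them higher, against 8.03% of all genes in either direction. These genes mark 1 cell type and are not independent of each other. Aif1, Lyz2, Fcgr1 and C1qa had the lowest p, with limma log2 fold changes of 1.55, 1.51, 1.31 and 1.06 (adjusted p = 0.618 for each). Against PBS the combination had 18 of 20 higher with a median of 0.80, the antibody 18 of 20 with a median of 0.38, and CDK4/6i 5 of 20 with a median of -0.31. Of all genes, 42.0%, 31.1% and 23.4% were higher in these comparisons, so the CDK4/6i count is near its background. Without the muscle-rich libraries the counts were 18 of 20 for the combination against CDK4/6i, with a median of 0.79, and 15 of 20 for CDK4/6i against PBS, with a median of 0.30, resting on CDK4/6i replicate 3 alone. With all 10 libraries, none of the 20 passed the test over all genes in any comparison. In the T cell list, 10 of 10 genes were higher in the combination than in CDK4/6i, with a median of 1.55 (1.499 without the muscle-rich libraries), and it summed to 9.13 to 38.04 RPKM in CDK4/6i and 22.2 to 123 RPKM in the combination.

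Against PBS, 13 of the 18 lipid-associated macrophage genes were higher in the combination, with a median of 0.25, where 42.0% of all genes were higher. Against CDK4/6i, 13 were higher, with a median of 0.55, where 68.6% of all genes were higher with a median of 0.15. In limma 6 of the 18 had an unadjusted p under 0.05 there, against 8.03% of all genes. Without the muscle-rich libraries 11 were higher than in CDK4/6i, with a median of 0.23. Of all genes, 59.0% were higher in that setting, with a median of 0.09. Both counts against CDK4/6i are near their background. Gpnmb, a glycoprotein of lysosome-rich macrophages, measured 1.43 and 0.483 RPKM in PBS, 0.647, 0.579 and 2.83 in CDK4/6i, 1.03 and 1.16 with the antibody, and 4.14, 3.59 and 4.28 with the combination. It was above every other library in all 3 combination libraries, including the muscle-rich replicate 1, in which Trem2 and Apoe were low. Its limma log2 fold change was 1.71 against PBS and 1.49 against CDK4/6i (adjusted p = 1 and 0.618), so it did not pass the test. Without the muscle-rich libraries the value against CDK4/6i was 0.41, resting on CDK4/6i replicate 3 alone. Lgals3, the lectin galectin-3, likewise was above all PBS, CDK4/6i and antibody libraries in all 3 combination libraries, at 11.6, 12.0 and 16.0 RPKM against at most 11.4 elsewhere. Of all genes, 4.45% lay higher without overlap in the combination than in PBS, 7.84% than in CDK4/6i and 21.5% than with the antibody. The share of genes above all other groups at once was not counted. Lpl, which releases fatty acids from lipoproteins and is abundant in fat, had a log2 fold change of -0.93 for CDK4/6i against PBS (limma, unadjusted p = 0.00416, adjusted p = 0.844), beside adipocyte RNA that was highest in PBS replicate 1.

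Of the 20 inflammatory activation genes, 14 were higher in the combination than in CDK4/6i, with a median of 0.37. Of all genes, 68.6% were higher there with a median of 0.15, so this count is near its background. In limma 8 of the 20, of which 7 were higher, had an unadjusted p under 0.05, against 8.03% of all genes. In CDK4/6i against PBS 11 were higher, with a median of 0.32, where 23.4% of all genes were higher with a median of -0.20. The CDK4/6i libraries did not move together: the list's mean log2 level was 1.10 and 1.26 in replicates 1 and 2, which are muscle-rich, below the 1.67 and 1.47 of PBS, and 3.15 in replicate 3. Without the muscle-rich libraries 8 of the 19 genes then tested were higher in the combination than in CDK4/6i, with a median of -0.15. Of all genes, 59.0% were higher in that setting, with a median of 0.09. The sign of the list's median thus turned, resting on CDK4/6i replicate 3 alone. In that setting 16 of the 19 were higher in CDK4/6i than in PBS, with a median of 1.53. Of all genes, 46.2% were higher, with a median of -0.04. These values rest on CDK4/6i replicate 3 alone, the library in which Il1b and Ptgs2 were singled out after their values were seen. Irf1, Cd40 and Il12b were higher in the combination than in CDK4/6i, with limma log2 fold changes of 1.10, 1.22 and 1.45 (adjusted p = 0.618 for each), and Socs3 was lower at -2.23 (adjusted p = 0.618). Of the 10 genes of resident peritoneal macrophages, 2 were higher with the antibody than in PBS, where 31.1% of all genes were higher, with a median of -0.49 against -0.17 for all genes. Gata6, their transcription factor, measured 19.5 and 14.5 RPKM in PBS and 10.6 and 12.3 RPKM with the antibody. Timd4, a surface marker of these cells, was at most 0.955 RPKM in every library. The haemoglobin and iron list had 1 of 11 genes higher with the antibody than in PBS, with a median of -0.41, and 1 unadjusted p under 0.05 (Blvrb), close to the 8.65% of all genes. With all 10 libraries none of these genes passed the test.

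The genes whose log2 levels were most alike a member over the 10 libraries were found by Pearson's r among 15395 genes with a mean of at least 1 RPKM, as a description. With 10 libraries and 3 of them rich in muscle, many genes reach a high r: 1201 genes were above 0.9 for Adgre1 and 1249 for Csf1r, but 91 for Apoe, 74 for Mertk, 70 for Mrc1, 62 for Nos2, 40 for Arg1, 25 for Trem2, 4 for Spp1 and 2 for Cd163. Adgre1 was most like Plcg2 (r = 0.99), Tbc1d9 and Erap1, and Csf1r most like Dock8 (0.99), Pik3c3 and Akna. Mertk was most like Phyhd1 (0.96), Nt5dc1 and Rasa3, and Apoe most like Irf4 (0.97), Dcaf10 and Rasa3, the last shared with Mertk. Trem2 was most like Sirpa (0.96), a myeloid receptor for CD47, Dnaaf3 and Def6, and Sirpa ran from 8.55 RPKM in CDK4/6i replicate 1 to 21.8 RPKM in combination replicate 3. Arg1 was most like Zfp282 (0.97), Gpam and 1700001G11Rik, Nos2 most like Gda (0.98), Gm8730 and RP23-392I13.15, and Mrc1 most like Emilin2 (0.97), Slit3 and Tle3. For Nos2 this likeness followed 1 library: Gda was at 43.9 RPKM in CDK4/6i replicate 3 and at most 15.8 elsewhere.

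Spp1 was most like the epithelial genes St14 (0.92) and Tjp3 (0.91) and the collagen Col6a4 (0.90). These 3 were highest in combination replicate 1, at 4.86, 6.25 and 10.6 RPKM, where Spp1 was highest as well. Cd163 was most like Mfap5 (0.92), a microfibril protein of fibroblasts, Srpx (0.90) and F13a1 (0.88), the coagulation factor subunit made by monocytes and resident macrophages. F13a1 was highest at 9.63 RPKM in antibody replicate 2 and lowest at 1.39 RPKM in combination replicate 2, the same libraries as the extremes of Cd163.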

How the data were processed

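RNA was measured by stranded mRNA sequencing of tumour tissue from 10 samples in 4 groups, with 2 library kits named in the labels' protocols. The authors deposited 1 table of RPKM values for 32830 genes, with each gene's length and position. The build was GRCm38 (mm10), per the submitters' processing notes. The sources used here do not give the aligner, the counter, the annotation or the use of strand, and overlapping and antisense genes are therefore uncertain. Every deposited RPKM value came out as a whole number of reads within a tolerance of 1e-06 (100% of values), which gave totals of 25132208 to 36260856 reads. Each of the 8 replicate pairs differed beyond sampling noise, with a chi-square per gene of 23.9 or more. Nothing was left out of the main fit.

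Because the unit was RPKM, limma 3.58.1 (R 4.3.3) was fitted to log2(RPKM + 0.5) for the 19368 genes at 0.5 RPKM or more in at least 2 samples, among them all 10 members, with 4 group means (6 residual degrees of freedom), a mean-variance trend and robust moderation. P-values were adjusted by Benjamini-Hochberg over all genes of a contrast, at 0.05, in 8 contrasts. A fold change on this scale understates low genes. Intervals are 95%. Correlations between members used log2(RPKM + 0.5) and 100000 two-sided permutations, or all of them for 7 libraries, over 45 pairs. This test was added after other results had been seen. Positions came from GENCODE M21, promoters from RefSeq (GRCm38.p6), and figures from matplotlib 3.10.9. The members, the 21 gene lists (243 genes, all in the table), and the motifs were chosen with earlier results of these data known. Named genes are the members, up to 4 genes of lowest p or direct partners per list, and the 3 genes most like each member. The scripts were tested on simulated data. The alternatives tried were a pseudocount of 0.1 or 1, a filter at 1 RPKM or none, median-ratio and quantile scaling, limma without trend, a fit of just the groups compared, a replicate block, voom on the recovered reads, and leaving out each library or the 3 muscle-rich libraries.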

Additional observations from a re-analysis of the deposited data

How the results depend on the processing

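No member was called in any of the 21 alternative settings, and the lowest adjusted p of a member in any of them was 0.0596 (Nos2, CDK4/6i against PBS, without the muscle-rich libraries). Of 1170 alternative values of 56 member fold changes, 1110 kept their direction, and 31 of the 56 never turned. The 56 are all members in the pairwise comparisons. For the averaged effects and the interaction, only members with an unadjusted limma p under 0.1 in the main fit were followed. The weaker ones were left out, so these counts can overstate how steady the members were. Deviations from group means in same-numbered samples had r from -0.45 to 0.62 (13 pairs, 6 above 0.1). In groups of 2 libraries these deviations mirror each other, so the values cannot show whether replicate numbers pair the samples.

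The number of genes called, 0 in every comparison, moved as follows. In CDK4/6i against PBS it was 8 with no filter, 26 without the muscle-rich libraries and 0 to 118 with 1 library left out. In the antibody against PBS it was 1 with a pseudocount of 1, 23 with no filter, 1 with quantile scaling, 2 with no trend, 65 with only the groups compared, 1 with the replicate block, 51 without the muscle-rich libraries and 0 to 39 with 1 library left out. In the combination against PBS it was 7 with no filter, 1 without the muscle-rich libraries and 0 to 90 with 1 library left out. In the combination against the antibody it was 1 with a pseudocount of 1, 15 with no filter, 2 with no trend, 1 without the muscle-rich libraries and 0 to 5 with 1 library left out. In the combination against CDK4/6i it was 5 without the muscle-rich libraries and 0 to 1 with 1 library left out. The averaged inhibitor effect gave 1 with the replicate block, 49 without the muscle-rich libraries and 0 to 101 with 1 library left out, the averaged antibody effect 1 with a pseudocount of 1, 74 without the muscle-rich libraries and 0 to 108 with 1 library left out, and the interaction 1 without the muscle-rich libraries and 0 with any 1 library left out. The counts of 118, 90 and 101 came without PBS replicate 1, and those of 39 and 108 without combination replicate 1. The cause was not tested.

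In the pairwise comparisons, log2 fold changes of members that turned sign were the following. Without the muscle-rich libraries, CDK4/6i against PBS was 0.48 for Adgre1, 0.36 for Csf1r, 0.81 for Arg1 and 0.0341 for Spp1, the combination against PBS 0.23 for Mertk, 0.19 for Mrc1 and 0.0974 for Apoe, the combination against the antibody 0.33 for Adgre1, 0.27 for Csf1r and 0.44 for Apoe, and the combination against CDK4/6i -1.29 for Arg1. With the replicate block, CDK4/6i against PBS was -0.42 for Mrc1, -0.16 for Trem2, 0.0461 for Spp1 and -0.0969 for Cd163, the combination against PBS -0.18 for Nos2, and the combination against the antibody -1.05 for Nos2, -0.00153 for Arg1 and -0.0849 for Mertk. Median-ratio scaling (log2 factors from -0.26 to 0.20) gave 0.22 for Spp1 in CDK4/6i against PBS and -0.0468 for Mertk in the combination against the antibody. Quantile scaling gave 0.11 for Spp1 in CDK4/6i against PBS, 0.0056 for Mertk in the antibody against PBS, and 0.19 for Apoe and -0.0629 for Mertk in the combination against the antibody. Mrc1 in CDK4/6i against PBS was -0.00750 with a pseudocount of 0.1 and -0.0107 with voom. Without the muscle-rich libraries, the averaged inhibitor effect was 0.40 for Adgre1, 0.32 for Csf1r, 0.55 for Arg1, 0.54 for Mrc1 and 0.0435 for Mertk. There the averaged antibody effect was -1.03 for Arg1, -1.71 for Nos2 and -0.35 for Mrc1. The interaction was -0.15 for Adgre1, -0.0968 for Csf1r, -0.53 for Arg1 and -0.00350 for Spp1. In each of these CDK4/6i replicate 3 stood alone for its group. Turns of these effects in other settings with all libraries are not listed.

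With 1 library left out, CDK4/6i against PBS ran from -0.22 to 3.09 for Nos2, -0.70 to 0.56 for Mrc1, -0.18 to 0.18 for Trem2, -0.12 to 0.11 for Spp1 and -0.11 to 0.42 for Cd163. The antibody against PBS ran from -0.53 to 0.11 for Mertk, -2.01 to 0.48 for Arg1 and -0.17 to 1.54 for Cd163. The combination against PBS ran from -0.45 to 0.23 for Mertk, -1.33 to 1.17 for Arg1, -0.22 to 0.19 for Mrc1 and -0.59 to 0.10 for Apoe. The combination against the antibody ran from -0.45 to 0.33 for Adgre1, -0.53 to 0.27 for Csf1r, -0.15 to 0.43 for Mertk, -0.31 to 1.10 for Nos2 and -0.25 to 0.44 for Apoe, and the combination against CDK4/6i from -1.84 to 1.48 for Nos2 and -0.62 to 0.64 for Mrc1. The averaged antibody effect ran from -0.48 to 1.17 for Nos2, -0.0301 to 0.60 for Mrc1 and -0.44 to 0.41 for Cd163. The interaction ran from -2.70 to 0.61 for Nos2, -1.19 to 0.0746 for Mrc1, -0.00964 to 1.28 for Adgre1 and -0.0167 to 0.91 for Csf1r. Groups held 2 or 3 libraries, and the value with the fewest reads behind it was that of Nos2 in CDK4/6i replicate 2, at 37 reads.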
